A study of Homo sapiens with 6 samples.

Results

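The mRNAs examined encode 10 transcription factors of epithelial differentiation: TP63, KLF4, GRHL1, GRHL3, OVOL1, ELF3, EHF, ZNF750, PRDM1 and HOPX. They were chosen by symbol out of the 26822 named genes of the table, and each symbol stood on 1 row that carried no other symbol. All 10 were listed above 0 in both groups. MCF10A, an immortalised but non-tumorigenic line of human breast epithelial cells with a basal character, was transfected with 30 nM of a non-targeting control siRNA (siNT) or of siRNAs targeting PAX9 (siPAX9), and poly(A)+ RNA was sequenced 72 hours later. The labels number 3 samples in each group, and do not say whether they were separate cultures. Both groups share the line, its growth medium and the transfection, and cells without siRNA were not analysed here. Knockdown by siRNA is transient and lowers an mRNA without removing its gene.

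The deposited table held 1 combined FPKM, a read number scaled to transcript length and to library size, per group and locus. No value per sample was used here, so the spread between replicates and the read number behind each FPKM are unknown. No difference below was therefore tested, and each is a description of those group values. A gene is called higher or lower past 2-fold when the ratio of siPAX9 to siNT FPKM reached 2 in that direction, which is the fold limit of the study. In a whole culture, a higher level may reflect more cells that express a gene or more RNA per cell, and these cannot be told apart.

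Stratified epithelia renew from a basal layer of dividing cells that leave the cell cycle, move upward and fill with structural proteins of the cornified envelope. TP63 encodes p63, the master regulator of the basal layer, which also starts the programme of stratification. ZNF750 and KLF4 act below p63 in the switch from basal to late differentiation genes, GRHL3 drives barrier genes such as TGM1, and OVOL1 represses genes of the undifferentiated state. MCF10A cells do not form skin, but they express p63 and many genes of stratified epithelium.

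The reference sequences of promoters are shown for GRHL1 and GRHL3, because these paralogs were both higher after PAX9 depletion and differ in base composition. Those of ELF3 and PRDM1 are shown because they held the TATA and AP-1 sequences of the higher members. Each window runs from 250 bases before to 50 bases after a RefSeq start on GRCh38.p14, and capitals mark matches to the sequences searched below.
GRHL1, chr2:9951443-9951742, + strand: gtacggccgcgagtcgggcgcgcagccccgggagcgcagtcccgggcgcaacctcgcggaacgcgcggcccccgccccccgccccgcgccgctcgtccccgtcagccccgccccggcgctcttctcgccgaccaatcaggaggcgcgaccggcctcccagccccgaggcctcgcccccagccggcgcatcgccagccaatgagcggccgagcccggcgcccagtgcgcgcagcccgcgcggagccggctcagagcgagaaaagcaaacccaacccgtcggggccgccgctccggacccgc
GRHL3, upstream start, chr1:24319107-24319406, + strand: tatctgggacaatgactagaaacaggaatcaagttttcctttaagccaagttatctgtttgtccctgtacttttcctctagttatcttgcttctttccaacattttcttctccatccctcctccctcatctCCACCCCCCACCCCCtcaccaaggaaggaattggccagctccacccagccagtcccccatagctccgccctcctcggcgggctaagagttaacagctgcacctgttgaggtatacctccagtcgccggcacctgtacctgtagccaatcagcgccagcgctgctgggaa
ELF3, chr1:202010337-202010636, + strand: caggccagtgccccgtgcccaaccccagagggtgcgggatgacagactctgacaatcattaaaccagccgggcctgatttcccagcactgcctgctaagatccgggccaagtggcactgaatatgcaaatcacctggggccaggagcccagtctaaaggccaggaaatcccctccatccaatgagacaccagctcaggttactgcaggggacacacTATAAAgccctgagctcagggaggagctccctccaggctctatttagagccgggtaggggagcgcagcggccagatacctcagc
PRDM1, downstream start, chr6:106098691-106098990, + strand: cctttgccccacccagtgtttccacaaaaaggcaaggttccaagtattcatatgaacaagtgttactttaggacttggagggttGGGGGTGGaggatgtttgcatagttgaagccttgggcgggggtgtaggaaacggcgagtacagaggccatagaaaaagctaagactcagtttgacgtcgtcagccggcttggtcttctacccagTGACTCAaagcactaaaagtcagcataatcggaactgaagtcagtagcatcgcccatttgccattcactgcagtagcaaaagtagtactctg

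RefSeq windows were at hand for 8 of the 10 members, with 12 starts in all. They were not at hand for OVOL1 and ZNF750. The GRHL1 window was 79.7% G and C and held 52 CpG dinucleotides, more than 99.2% of the 35116 RefSeq windows. The GRHL3 window was 53.0% G and C and held 7 CpG dinucleotides, against a median of 14 over all windows. The KLF4 window held 33, and the remaining windows of the members held between 3 and 15.

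The sequences searched, on both strands, were AACCGGTT for grainyhead factors, GGGNGTGG for KLF4-type factors, CCGGAAGT for ETS factors, TGANTCA for AP-1, TATAAA for the TATA box, and the PAX binding sequences GCGTGACCA and GCGGAACGG. GGGNGTGG was matched in 3 of the 12 windows, those of GRHL3 at its upstream start and of PRDM1 at both starts, and in 17.2% of all windows. The GRHL3 window held 2 such matches that share 1 base, which print as one run of capitals. TGANTCA was matched in the downstream PRDM1 window, 42 bases before the start, and in 7.71% of all windows. TATAAA was matched 34 bases before the ELF3 start and, on the other strand, after the start of TP63, and in 11.5% of all windows. No member window held AACCGGTT, CCGGAAGT, GCGTGACCA or GCGGAACGG, which were in 0.134%, 4.14%, 0.157% and 0.225% of all windows. A match of letters is a description and not a bound site. The paper scanned these PAX sequences and further PAX9 ones over a longer upstream stretch, and reported many potential sites. Here only exact letters in windows of 300 bases were searched, so no match does not mean no PAX9 site near a member.

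PAX9, the targeted gene, had an FPKM of 2.80 with siNT and 0.325 with siPAX9, or 11.6% of the siNT level. Of the 18462 named genes above 0 in both groups, 13.7% were higher past 2-fold in siPAX9 and 8.15% were lower. Among the 13145 with a mean FPKM of at least 1, the shares were 6.37% and 6.57%. The 12557 genes that reached an FPKM of 1 in each group had a median log2 ratio of -0.08. When both groups were rescaled to the same FPKM sum over named rows, each log2 ratio moved by 0.27, and the share of genes past 2-fold that were higher went from 62.8% to 77.8%. Of the keratins that mark breast epithelium, the basal KRT5 (FPKM 1560 and 1810 in siNT and siPAX9), KRT14 (31.4 and 40.9) and KRT17 (1720 and 2090) and the luminal KRT8 (51.7 and 58.7) and KRT18 (212 and 119) were present in both groups.

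Of the 10 members, 8 were higher past 2-fold in siPAX9, 0 were lower past 2-fold, and KLF4 and TP63 lay within 2-fold. This count stands beside the 13.7% of named genes that were higher past 2-fold. The median log2 ratio of the members was 1.69, against 0.01 over the 18462 named genes. The summed FPKM of the members was 92.1 in siNT and 198 in siPAX9. With 1 added to each FPKM, a scale that compresses low values, 6 of 10 were higher past 2-fold, beside 2.54% of all named genes. Of the 7 members that reached an FPKM of 1 in each group, 5 were higher past 2-fold, beside 4.4% of such genes. At least 4-fold higher were 4 of the 10 members, OVOL1, ZNF750, HOPX and GRHL3, beside 5.75% of named genes.

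**Figure D1:**
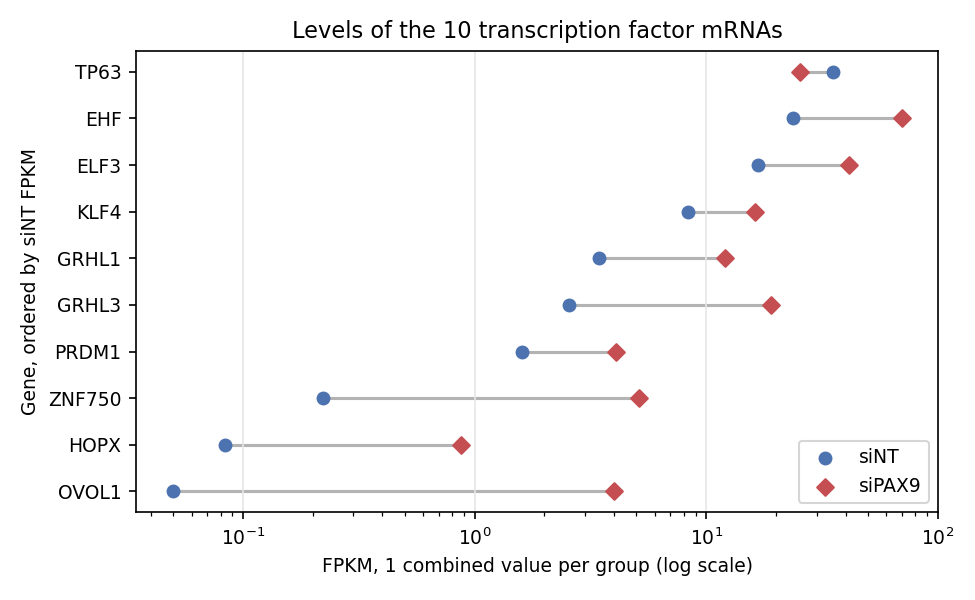
FPKM of the 10 members on a log axis, with 1 combined value per group and no error bar because no value per sample was used. Circles stand for siNT and diamonds for siPAX9; the siPAX9 value lies to the right for 9 genes and to the left for TP63, and the widest gap is that of OVOL1 (0.0497 and 4.02).

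TP63 was the member with the highest FPKM in siNT and the only one that was lower in siPAX9. It lies on chromosome 3 from 189349216 to 189615068 (UCSC hg19, as are the other locus positions). Its FPKM was 35.4 in siNT and 25.3 in siPAX9, or 71.4% of the control level. Its log2 ratio was -0.49, within the 2-fold limit, and 20.9% of the named genes had a smaller one. The gene-level FPKM does not separate the long and the N-terminally truncated p63 forms, of which basal cells mainly make the latter. TP63 held 38.5% of the members' summed FPKM in siNT and 12.8% in siPAX9.

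KLF4 encodes a zinc finger factor needed for the skin barrier (chromosome 9, 110247133 to 110252001). Its FPKM was 8.39 in siNT and 16.2 in siPAX9. The ratio of 1.93 fell just short of the 2-fold limit, with a log2 ratio of 0.95. After centring on the median of the genes that reached an FPKM of 1 in each group the log2 ratio was 1.02, and after rescaling to equal sums it was 1.22. Each of these steps adds the same constant to the log2 ratio of every gene, and the share of named genes higher past 2-fold was then 15% and 18.6%.

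GRHL1 and GRHL3 encode grainyhead-like factors that bind the same DNA sequence and act on junction and barrier genes. GRHL1 (chromosome 2, 10091792 to 10142467) had an FPKM of 3.45 with siNT and 12.1 with siPAX9, a 3.52-fold higher level. GRHL3 (chromosome 1) had an FPKM of 2.57 with siNT and 19.0 with siPAX9, a 7.41-fold higher level. The GRHL3 level was 0.743 times that of GRHL1 in siNT and 1.57 times in siPAX9, so the order of the pair differed between the groups. GRHL3 shares its listed interval, 24645812 to 24803137, with NIPAL3 (FPKM 20.7 and 14.4 in siNT and siPAX9) and STPG1 (2.18 and 2.55), and neither of them was past 2-fold.

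OVOL1, a zinc finger repressor that helps epithelial cells leave the proliferating state, had the largest ratio among the members. It lies on chromosome 11 from 65554505 to 65564690. Its FPKM was 0.0497 in siNT and 4.02 in siPAX9, an 81.0-fold ratio and a log2 ratio of 6.34. The ratio rests on an siNT value near 0, and with 1 added to each FPKM the log2 ratio was 2.26. OVOL1 was the lowest of the 10 members in siNT and lay above HOPX in siPAX9.

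ELF3 and EHF encode ETS factors of the epithelium-specific subfamily, which are found in simple and stratified epithelia including the breast. ELF3 (chromosome 1, 201978573 to 201986316) had an FPKM of 16.7 with siNT and 41.4 with siPAX9, a 2.48-fold higher level. EHF (chromosome 11, 34642588 to 34684834) had an FPKM of 23.6 with siNT and 70.0 with siPAX9, a 2.97-fold higher level. EHF showed the largest absolute difference of the members, 46.4 FPKM. It was at 0.665 times the TP63 level in siNT and 2.77 times in siPAX9, where it stood above 94.8% of the named genes with an FPKM above 0.

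ZNF750, a zinc finger factor induced by p63 during terminal differentiation, had an FPKM of 0.222 with siNT and 5.12 with siPAX9. The ratio was 23.1, with a log2 ratio of 4.53, or 2.33 with 1 added to each FPKM. In the GENCODE annotation of GRCh37 the gene spans 80787310 to 80797898 on the minus strand of chromosome 17, inside TBCD, which is on the plus strand. The canonical exons of the pair share 0 bases. TBCD had an FPKM of 10.0 with siNT and 8.07 with siPAX9, the opposite direction to ZNF750.

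PRDM1 encodes BLIMP1, a repressor known from plasma cells that is also made in the granular layer of skin. On chromosome 6, from 106534195 to 106557814, its FPKM was 1.60 in siNT and 4.07 in siPAX9, a 2.54-fold higher level. With 1 added to each FPKM the log2 ratio was 0.96 and PRDM1 no longer passed 2-fold.

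HOPX encodes a homeodomain protein that does not bind DNA by itself and is expressed in differentiating keratinocytes. On chromosome 4, from 57514154 to 57547872, its FPKM was 0.0840 in siNT and 0.876 in siPAX9. The ratio was 10.4, but the mean FPKM of 0.480 was the only one of the members under 1. Among the 5317 named genes with a mean FPKM under 1, 32% were higher past 2-fold. With 1 added to each FPKM the log2 ratio of HOPX was 0.79.

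The members differed in where they started. OVOL1, HOPX and ZNF750 were under an FPKM of 1 in siNT and had the 3 largest ratios, from 10.4 to 81.0. GRHL1, GRHL3, PRDM1, ELF3 and EHF were at 1.60 to 23.6 in siNT and had ratios of 2.48 to 7.41. In siNT 7 members reached an FPKM of 1 and 3 reached 10, and in siPAX9 these numbers were 9 and 6. From highest to lowest, the order in siNT was TP63, EHF, ELF3, KLF4, GRHL1, GRHL3, PRDM1, ZNF750, HOPX and OVOL1. In siPAX9 it was EHF, ELF3, TP63, GRHL3, KLF4, GRHL1, ZNF750, PRDM1, OVOL1 and HOPX. FPKM is scaled per length, so levels of different genes can be set side by side, but whether neighbours in these orders differ beyond replicate spread is unknown. PRDM1 and OVOL1 in siPAX9, for example, were at 4.07 and 4.02.

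**Figure D2:**
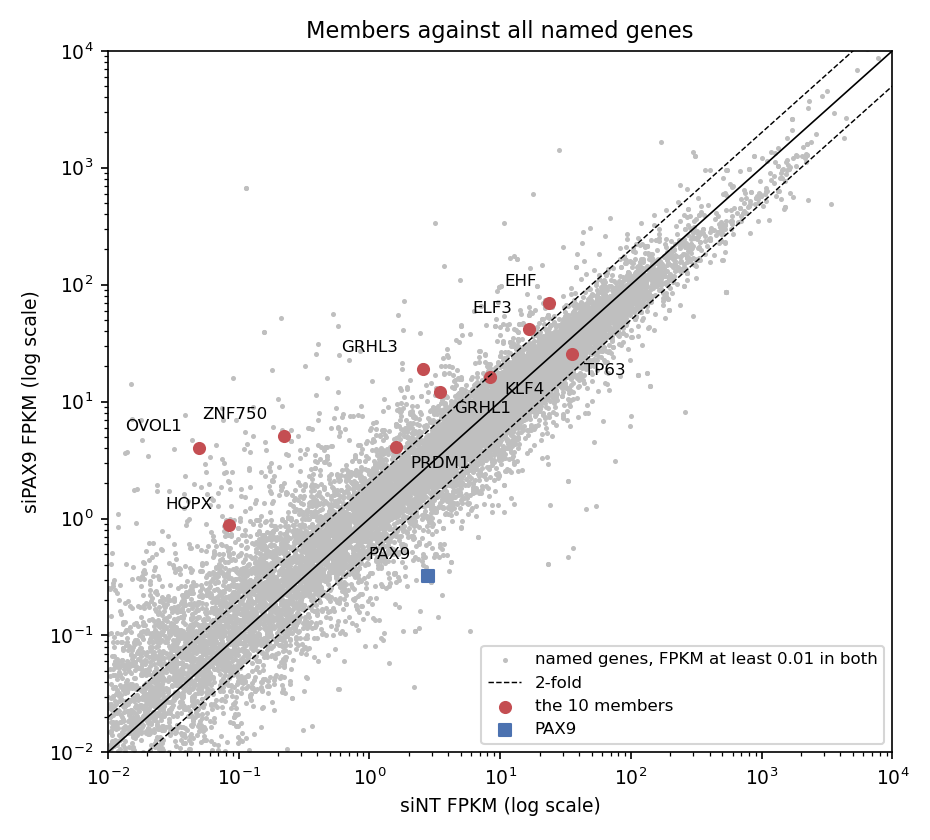
FPKM in siPAX9 against FPKM in siNT on log axes for named genes with at least 0.01 in both groups (grey), the 10 members (red) and PAX9 (blue square), with the line of equality and dashed lines at 2-fold. OVOL1, ZNF750, HOPX and GRHL3 lie far above the upper dashed line, KLF4 (ratio 1.93) lies at it, and TP63 (0.714) lies between the dashed lines. The grey cloud widens toward low FPKM.

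Of 22 genes of the same families, 20 were above 0 in both groups, with a median log2 ratio of 0.25. Of the 20, 3 were higher past 2-fold and 2 were lower, beside 13.7% and 8.15% of all named genes, and 15 lay within 2-fold. Of the 3 higher ones GRHL2 and OVOL3 were near 0 in both groups. Of the 17 with a mean FPKM of at least 1, 1 was higher and 2 were lower, beside 6.37% and 6.57% of such genes. TP73, which encodes the TP63 relative p73, was lower past 2-fold, at an FPKM of 4.24 with siNT and 1.07 with siPAX9. Its log2 ratio was -1.99, against -0.49 for TP63, so both had their lower value in siPAX9. The TP63 level was 8.36 times that of TP73 in siNT and 23.6 times in siPAX9.

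KLF5, the most abundant KLF factor of the list, had an FPKM of 95.4 with siNT and 110 with siPAX9 and was 11.4 and 6.82 times as high as KLF4. KLF11, an inhibitor of cell growth, was lower past 2-fold, at 9.05 and 3.51. OVOL2, which protects the epithelial state, was higher past 2-fold, at 3.06 and 6.70, and exceeded OVOL1 61.7-fold in siNT and 1.67-fold in siPAX9. GRHL2, the grainyhead factor of many simple epithelia, was listed at 0.00380 and 0.0143, far below GRHL1 and GRHL3 in both groups. ELF5, the ETS factor of the milk-producing lineage, was listed at 0 in siNT and 0.0308 in siPAX9, and SPDEF at 0 in both.

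**Figure D3:**
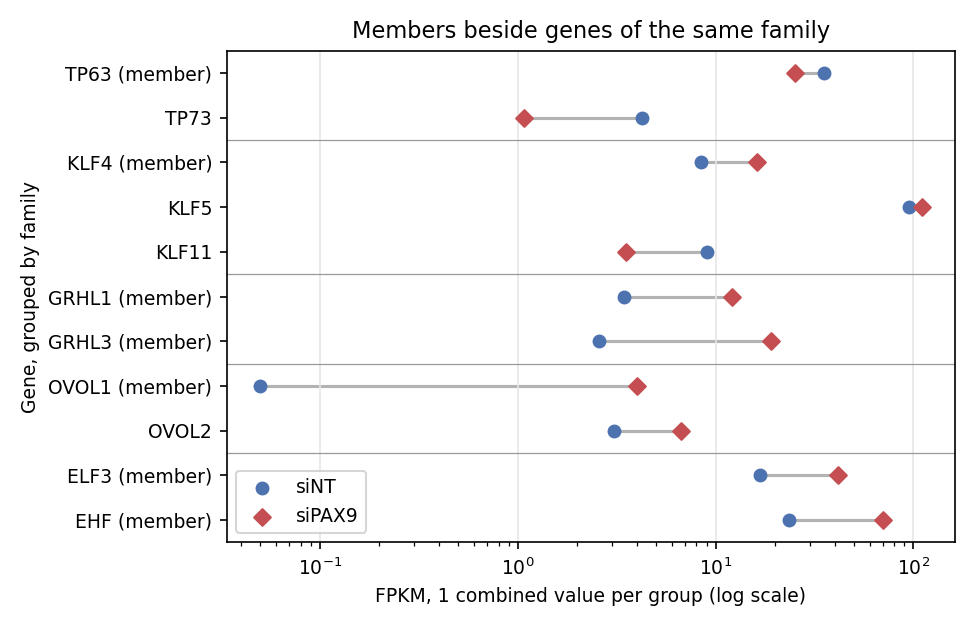
FPKM on a log axis for members and for those relatives named in the text that had a mean FPKM of at least 1, grouped by family between the thin lines, with circles for siNT and diamonds for siPAX9 and 1 combined value per group. TP63 and TP73 lie lower in siPAX9, KLF11 lies opposite to KLF4, and OVOL1 (4.02) comes near OVOL2 (6.70) only in siPAX9.

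A list of 41 other regulators of stratified epithelium, mostly transcription factors, was set beside the members. Of the 39 above 0 in both groups, 9 were higher past 2-fold and 2 were lower, beside 13.7% and 8.15% of all named genes, and 28 lay within 2-fold. Of the 31 with a mean FPKM of at least 1, 6 were higher and 1 was lower, beside 6.37% and 6.57% of such genes. The median log2 ratio was 0.17 over the 39 and -0.08 over the 31. Among those with a mean FPKM of at least 1, SOX9, a factor of progenitor cells in several epithelia, had an FPKM of 1.39 with siNT and 9.01 with siPAX9. ZNF185, which encodes an actin-binding protein induced with differentiation and is a known p63 target, had 1.78 and 19.0. BARX2, a homeobox factor, had 0.0591 and 1.96. ID1, an inhibitor of basic helix-loop-helix factors, had 91.9 and 211. CASZ1, at 4.69 and 9.38, lay at the 2-fold limit. PPARG, a nuclear receptor, was lower past 2-fold, at 4.99 and 2.38.

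Lists of basal-layer, suprabasal, and granular and cornified genes were set beside the members. Whether the members act on these genes in these cells was not tested. The lists include genes already known to be high in siPAX9, so they are no independent support. Of 19 basal-layer genes known as p63 targets, 2 were higher past 2-fold, 0 were lower and 17 lay within 2-fold, with a median log2 ratio of 0.25. After rescaling to equal sums 5 were higher past 2-fold. The pair that passed was PERP (FPKM 229 and 505), a desmosome protein, and COL7A1 (1.59 and 6.37), the anchoring fibril collagen, whose row carries several symbols. Of 18 suprabasal genes, 12 were above 0 in both groups, with a median log2 ratio of 2.40. Of the 12, 7 were higher past 2-fold and 0 were lower, beside 13.7% and 8.15% of all named genes. Where each group had to reach an FPKM of 1, 2 were higher, beside 4.4% of such genes. These were KRT10 (21.0 and 148), the suprabasal keratin of skin, and DSC2 (11.3 and 44.8), a desmosomal cadherin. The other higher ones, KRT1, KRT13, CALML5, NOTCH3 and SBSN, were at an FPKM of 0.203 or less in siNT. DMKN (32.9 and 20.3) and DSC3 (57.5 and 42.3) had their lower value in siPAX9, within 2-fold. KRT13, a keratin of internal stratified epithelia, had an FPKM of 0.0182 with siNT and 4.67 with siPAX9. CALML5, a calcium-binding protein of differentiating skin, had 0.0202 and 3.42, and SBSN, encoding suprabasin, had 0.0673 and 4.23. KRT4, the partner keratin of KRT13, was listed at 0 in siNT and at 1.48 in siPAX9, and KRTDAP, DSG1 and KRT77 were listed at 0 in siNT and at 0.724, 0.0540 and 0.00626 in siPAX9. KRT2 and DSC1 were at 0 in both groups.

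Of 38 genes of the granular layer and cornified envelope, 30 were above 0 in both groups, with a median log2 ratio of 2.58. Of the 30, 24 were higher past 2-fold and 1 was lower, beside 13.7% and 8.15% of all named genes. The list held 24 genes above 0 in both groups with a mean FPKM of at least 1, and 18 of them were higher, beside 6.37% of such genes. Some of the 18, such as SCEL, SULT2B1 and SPRR2A, reached that mean through siPAX9 only. Where each group had to reach an FPKM of 1, 6 were higher, beside 4.4%. Another 7 were listed at 0 in siNT only. Of these SPRR3, a small proline-rich protein of internal epithelia, had 9.17 in siPAX9, and CERS3, SPRR4, ASPG, LCE3E, LOR and TGM3 had 0.391, 0.242, 0.0658, 0.0514, 0.0171 and 0.0101. The largest ratios among those with a mean FPKM of at least 1 were those of SCEL (0.0179 and 6.96), encoding sciellin, SULT2B1 (0.0136 and 3.63), a cholesterol sulfotransferase, and SPRR2A (0.211 and 52.1), a small proline-rich protein with near-identical paralogs. PLA2G4E, a phospholipase, was the 1 gene lower past 2-fold, at 16.4 and 7.39. RPTN, encoding repetin, was at 0 in both groups.

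**Figure D4:**
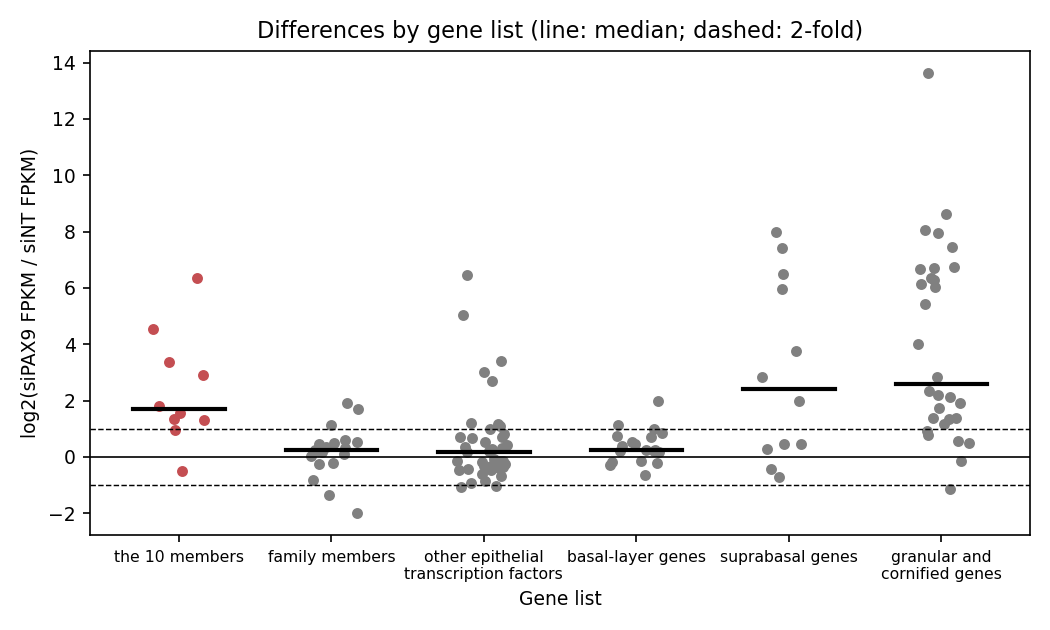
Log2 of the siPAX9 to siNT FPKM ratio for each gene above 0 in both groups, by list, with a thick line at the list's median and dashed lines at 2-fold. The medians are 1.69 for the members, 0.25 for family members, 0.17 for other transcription factors, 0.25 for basal-layer genes, 2.40 for suprabasal genes and 2.58 for granular and cornified genes. The highest point of the last list is FLG, whose siNT value was 1.02e-05 FPKM. Points have a sideways offset for legibility only.

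Markers of other cell types also differed between the groups. Of 9 fibroblast markers, 5 were higher past 2-fold and 1 was lower, with a summed FPKM of 8.53 with siNT and 46.5 with siPAX9, most of it from DCN (5.85 and 37.9). With a mean FPKM of at least 1, 3 were higher past 2-fold and 0 were lower, since LUM, PDGFRA and THY1 were near 0 in both groups. Of the defining collagens, COL1A1 was at 0.454 and 4.13, whereas COL1A2 and COL3A1 were at 0.00337 or less in both groups. Of 8 white blood cell markers, 4 were higher past 2-fold, with a sum of 18.1 and 61.1, most of it from CD14 (14.4 and 56.5), while CD3E and CD4 were at 0 in both groups and PTPRC was at 0.0922 or less. Of 6 endothelial markers, 2 were higher past 2-fold and 2 were lower, with a sum of 3.98 and 2.49. PECAM1 (2.58 and 0.495) was lower and KDR (0.798 and 1.94) was higher. Among 12 luminal breast markers 5 were higher past 2-fold, including CLDN4 (0.842 and 27.1) and FOXA1 (1.10 and 2.86), and EPCAM (34.3 and 16.7) was lower past 2-fold. CLDN4 and FOXA1 were the 2 higher ones with a mean FPKM of at least 1, and CLDN3, KRT19 and ESR1 were at 0.317 or less in both groups. Of the white blood cell markers, CD14 was the 1 higher with a mean FPKM of at least 1. For comparison, 32% of all named genes with a mean FPKM under 1 were higher past 2-fold. Of 9 basal breast markers, 2 were higher past 2-fold, KRT6A (368 and 959) and KRT6B (41.2 and 113). The part of other cell types in the members' values was not tested.

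The genome around the members was also examined. Some of the members' listed intervals span neighbouring genes as well. Within 100 kb of the listed intervals, 24 other named rows were above 0 in both groups with a mean FPKM of at least 1. Of the 24, 2 were higher past 2-fold and 1 was lower, beside 6.37% and 6.57% of all such genes. The other rows lay within 2-fold. AP5B1, which lies next to OVOL1 from 65541369 to 65548062, was one of the higher rows, with an FPKM of 6.98 with siNT and 27.3 with siPAX9. Between AP5B1 and OVOL1, a locus without a symbol (65548920 to 65549596) had 0.0287 and 0.908. OVOL1-AS1, an antisense RNA inside OVOL1 that is outside this count, was listed at 0 in siNT and 4.92 in siPAX9. Its canonical exons share 0 bases with those of OVOL1, but whether reads were counted by strand is not given in the sources used here, so reads from both strands may not be separable there.

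Beyond the end of the listed interval of ZNF750 (80709940 to 81009686), which reaches well past the gene itself, METRNL (chromosome 17, 81037567 to 81052871), which encodes a secreted protein, had an FPKM of 3.60 with siNT and 8.20 with siPAX9. Near GRHL1, the gene lower past 2-fold was KLF11 (chromosome 2, 10183682 to 10194963), a relative of KLF4, the opposite direction to GRHL1. A locus without a symbol beyond the end of TP63 (189652319 to 189653447) had an FPKM of 0.0982 with siNT and 1.77 with siPAX9, opposite to TP63 itself. Near ELF3, the microRNA gene MIR6740 was listed at 0 with siNT and at 29.7 with siPAX9, on the same listed interval as RNPEP (106 and 97.8). Whether reads of MIR6740 can be told apart from those of RNPEP was not tested, and the read number behind its value is unknown. A locus without a symbol near ELF3 (chromosome 1, 201947733 to 201947948) had 315 and 117, the opposite direction to ELF3. Among low-level loci with the direction of their member was FN3K near ZNF750 (0.136 and 0.629). Others, without a symbol, lay near ZNF750 (0.288 and 1.42, and 0.609 and 3.69) and near OVOL1 (0.263 and 1.05).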

How the data were processed

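RNA-seq was performed on 3 siNT and 3 siPAX9 samples of MCF10A cells. Reads were aligned to UCSC hg19 with Bowtie2 and quantified with Cufflinks in Partek, per the submitters' processing notes. The authors deposited 1 FPKM per group and locus, with samples combined, for 41656 loci. The normalization between libraries is not given in the sources used here, and the table gives no depth, count or interval. The deposited fold changes, test statistics, p-values and q-values hold the authors' own comparison and were not used.

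The row with the higher mean FPKM was kept for each symbol, and log2(siPAX9 FPKM / siNT FPKM) was computed without a pseudocount. Genes at 0 in a group were given no ratio. Starts in the table count from 0 and were converted. Gene positions and exons came from GENCODE release 44 on GRCh37, which has hg19 coordinates, and promoters from RefSeq on GRCh38.p14. The ratio and sequence search were tested on simulated data. Tools were Python 3.11.15, numpy 2.4.6, pandas 2.3.3 and matplotlib 3.10.9.

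The members, lists and fold limit were chosen with earlier results of these data known. Named genes were the members, PAX9, family members and other transcription factors past 2-fold with a mean FPKM of at least 1, the closest relatives, and for the remaining lists up to 3 of the largest differences in each direction, genes at 0 in 1 group and defining markers. SPDEF, KRT10, DSC2 and the genes near members were named after their values were seen. Some genes that the rule names are not reported here. Alternatives were pseudocounts of 1 and 0.1, filters on FPKM, centring, rescaling, summed rows, single-symbol rows and fold limits of 1.5 and 4. The restriction to rows with status OK in the table was added after seeing the data.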

Additional observations from a re-analysis of the deposited data

How the results depend on the processing

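The 8 members past 2-fold were all higher in siPAX9 and 0 were lower under each alternative. Their number became 5 where each group had to reach an FPKM of 1, which removes OVOL1, ZNF750 and HOPX, and 4 at a fold limit of 4. It was 9 after centring, after rescaling and at a fold limit of 1.5, where KLF4 was added, while the share of named genes higher past the limit went from 13.7% to 15%, 18.6% and 22.2%. Basal-layer genes higher past the limit, 2, became 5 after rescaling, 6 at a fold limit of 1.5 and 1 on rows with a single symbol. The number of genes past 2-fold over the lists beside the members, 72, became 41 with 1 added to each FPKM, 27 where each group had to reach an FPKM of 1 and 39 at a fold limit of 4. No alternative turned the direction of a member or of PAX9. No paired analysis was possible because the table holds 1 combined value per group, and leaving out a replicate could not be run for the same reason. Without counts, the precision of low FPKM values, such as those of OVOL1 and HOPX in siNT, is unknown.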
